A study of Drosophila melanogaster with 16 samples.

Results

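Actin and tubulin build the filaments of the cytoskeleton, and the editing of 6 of their mRNAs was followed here: the cytoplasmic actins Act5C and Act42A, the beta-tubulins betaTub56D and betaTub60D, and the alpha-tubulins alphaTub84B and alphaTub84D. The genes were chosen by symbol and are 6 of the 5003 genes in the bulk table of editing frequencies and 6 of the 6336 genes with an edited position in the single-cell table. They hold 41 of the 32873 bulk A-to-G positions and 72 of the 92964 single-cell positions. The cells expressed the RNA-binding protein FMR1 joined to the editing domain of ADAR, which turns adenosine into inosine, and sequencing reads inosine as guanosine. The share of reads with guanosine is therefore taken as a record of contact between the fusion and an mRNA.

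The bulk groups were S2 cells of clone 1, which carries the fusion under a metallothionein promoter, and dissociated brains of L3 larvae, in which elav-GeneSwitch-Gal4 drives a UAS fusion in neurons while the library holds RNA of all cells of pooled brains. In S2 cells the fusion was induced with 1 mM copper sulfate for 4 h, and in brains with RU486. After that the samples were kept for 4 h in 0.5 mM arsenite, which makes FMR1 gather in stress granules, or in Schneider's medium. There were 3 arsenite replicates and 3 Schneider's replicates of each material, and 1 uninduced sample of each, which carries the same constructs without induction. Single S2 cells came from 2 plates with 96 wells each per plate of arsenite, Krebs Ringer buffer and Schneider's medium after 4 h of induction, and 80 wells of a 2 h induction followed by 2 h in Schneider's medium, beside empty wells.

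Actin monomers polymerise into filaments, and alpha- and beta-tubulin form the dimers from which microtubules grow, so cells need these proteins in bulk and make their mRNAs in large amounts. Act5C and Act42A encode almost the same protein, as do alphaTub84B and alphaTub84D. betaTub56D is the beta-tubulin used by most fly cells, and betaTub60D is best known from differentiating tissues such as muscle. The authors kept uniquely mapped reads, so reads from stretches that are identical in 2 genes were lost, and the values of the near-identical pairs are uncertain to that extent.

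In the BDGP6 annotation of Ensembl, Act5C lies on chromosome X at 5900861 to 5905399, alphaTub84B on 3R at 7086599 to 7088839, alphaTub84D on 3R at 7530753 to 7532732, Act42A on 2R at 6013910 to 6015689, betaTub56D on 2R at 19447319 to 19451600 and betaTub60D on 2R at 24305881 to 24313099. Act42A and betaTub56D are on the minus strand. Of the 41 bulk positions, 31 lay in coding sequence, 9 in the 3′ UTR and 1 in a 5′ UTR. betaTub60D held 13 positions, Act5C and betaTub56D 7 each, Act42A 6, and both alpha-tubulins 4 each, against a median of 4 per gene over the whole table. A was the base before the edited adenosine at 34.1% of the members' positions and at 30.1% of all positions, and G the base after it at 34.1% of the members' positions and 50.05% of all positions. G came before the adenosine at 4.88% of the members' positions and at 4.93% of all positions, so the rarity of that base was shared with the rest of the table.

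Depth was limited. The bulk samples held between 247153 and 458176 reads at A-to-G positions, the members' positions were read 34 to 762 times per gene and sample, and shares are given with 95% Clopper-Pearson intervals, which cover counting error only. Neuron markers took 21.9 to 24.6 of 10000 such reads in arsenite brains, 24.8 to 28.4 in Schneider's brains and 3.83 to 4.70 in the induced S2 cells. Hemocyte markers took 24.8 to 27.0 in the induced S2 cells and 2.06 to 3.79 in the induced brains. Each induced S2 group lacked reads of 4 of the 10 neuron markers (Syt1, nrv3 and para in both induced groups), 4 of 8 hemocyte and 4 of 8 glia markers had an edited position, and none of the 8 muscle markers had one. Glia markers took 2.06 to 2.51 of 10000 reads in arsenite brains and 1.46 to 1.82 in Schneider's brains. In arsenite brains neuron markers were thus lower and glia markers higher, without overlap, and the part of these differences in the results was not tested.

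In S2 cells, arsenite raised the editing of alphaTub84D past the threshold, and the other members showed smaller differences that did not pass it. The average editing frequency, the mean over the positions of a gene of edited over total reads, was 20.2% ± 0.743 in arsenite for alphaTub84D against 10.01% ± 1.04 in Schneider's (SD, n = 3 each). The fit across all genes (limma, two-sided) called 1 of the 6 members, which means an unadjusted p under 0.01 here and below, against 23.7% of the 4589 genes tested (23.6% called higher and 0.0872% lower). At an unadjusted p under 0.05 there were 4 members. The share of all genes or positions at that threshold was not counted, here or below, so such counts have no background. The quasi-binomial model of the reads called 2 members, against 680 of the 4567 genes it tested. The median difference of the 6 members was 5.94 percentage points, and that of all genes tested 10.7. Of the 6 differences, 5 were above 0. All tested genes together averaged 23.3% ± 0.151 in arsenite and 11.6% ± 0.255 in Schneider's, a ratio of 2.01.

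alphaTub84D was edited at 21.0%, 19.9% and 19.7% in the arsenite samples, against 8.84%, 10.8% and 10.4% in Schneider's and 0.272% in the uninduced sample. The groups did not overlap, which held for 4 of the 6 members, all with arsenite above, against 51.4% of all genes with arsenite above and 0.458% with arsenite below. The difference was 10.2 points (SE 1.83, limma adjusted p = 0.0231), close to the median of all genes, with 47.1% of genes showing a smaller one. After division by the mean frequency of each sample the difference was 0.02 points and not called, since the ratio of the groups was 2.02 for alphaTub84D and 2.01 for the average gene. Among the fits that left out 1 replicate, its call was lost without Schneider's replicate 1 (9.59 points) and without Schneider's replicate 3 (10.4 points). The call was also lost with a replicate block, although the replicate numbers do not pair samples.

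Act5C was edited at 12.8%, 13.0% and 11.5% in the arsenite samples, against 7.38%, 6.09% and 6.35% in Schneider's. The uninduced sample had 0 of 564 reads edited, which allows a share of up to 0.532% if 3 reads are taken as the limit of a count of 0. There was no overlap, and the difference was 5.84 points (95% interval 1.32 to 10.4, limma adjusted p = 0.0627).

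Act42A was edited at 12.0%, 8.70% and 11.8% in arsenite, against 5.01%, 3.63% and 5.76% in Schneider's, again without overlap. The difference was 6.05 points (95% interval 0.943 to 11.1, limma adjusted p = 0.0755). The 2 actins thus had nearly equal differences, each below the median of all genes.

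betaTub56D was edited at 15.2%, 16.8% and 13.9% in arsenite, against 8.86%, 6.30% and 10.7% in Schneider's and 0.446% in the uninduced sample. The groups did not overlap, and the difference was 6.68 points (95% interval 1.22 to 12.1, limma adjusted p = 0.0704). With all 14 bulk samples in 1 fit, Act5C, Act42A and betaTub56D were called as well, which makes 4 members, against 1628 of the 4589 genes tested. The fit with no filter on low values also called these 4 members, against 1218 of 5003 genes.

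betaTub60D and alphaTub84B had overlapping groups. betaTub60D was edited at 22.7%, 20.9% and 16.3% in arsenite, against 21.8%, 19.6% and 19.7% in Schneider's and 7.69% in the uninduced sample, a difference of -0.37 points (95% interval -6.59 to 5.86, limma adjusted p = 0.910). Only 7.93% of the genes tested had a smaller difference. Division by the mean frequency of each sample compares a gene with the average gene. After it betaTub60D was the 1 member called and was lower in arsenite, by -15.7 points at the mean frequency of the 6 samples. Over all 4589 genes tested, this setting called 165 higher in arsenite and 148 lower. The divided average includes 2R:24311664, which read G in all reads of arsenite, Schneider's and uninduced S2 cells. Division without that position was not run, so the size of this difference is uncertain. alphaTub84B was edited at 1.52%, 8.48% and 6.84% in arsenite, against 4.91%, 5.0% and 0% in Schneider's, a difference of 2.31 points (95% interval -4.96 to 9.57, limma adjusted p = 0.535), and its samples held 38 to 74 reads each.

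**Figure D1:**
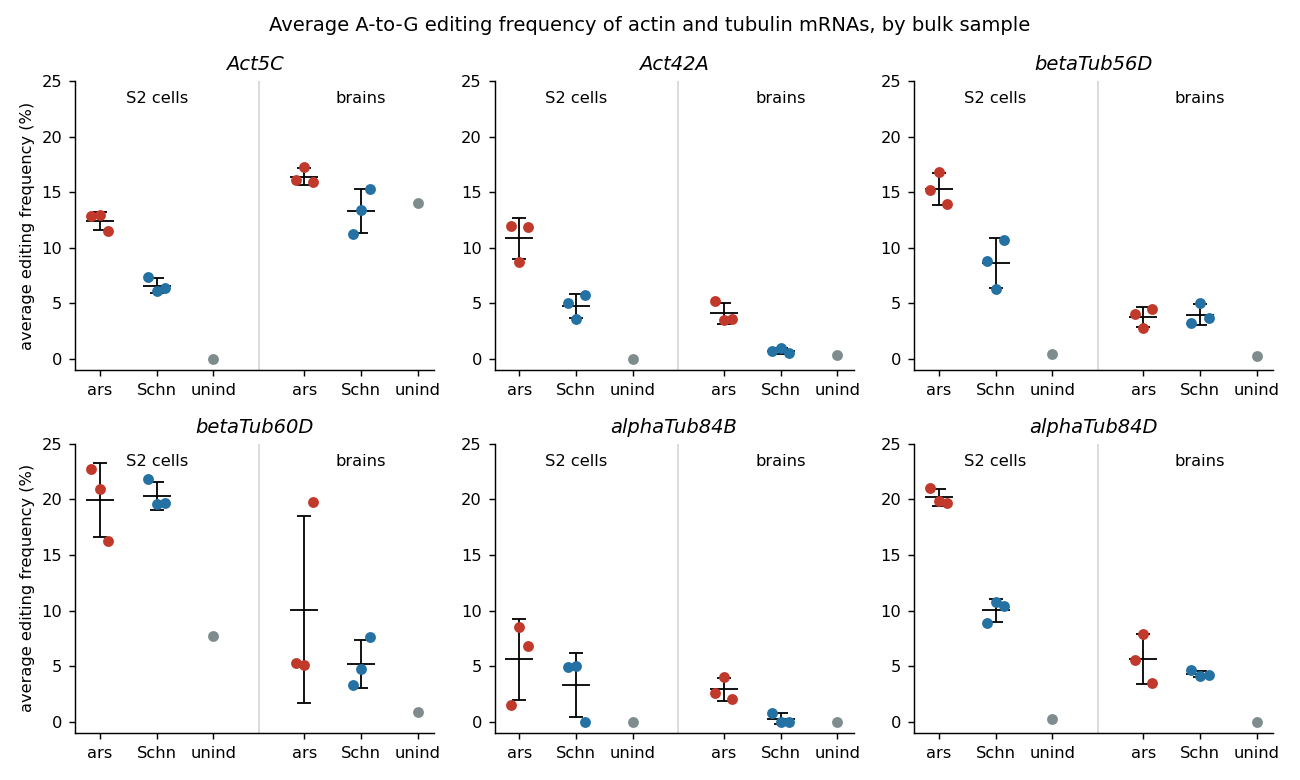
Average editing frequency (%) of each mRNA in every bulk sample, with arsenite (red), Schneider's (blue) and uninduced (grey) samples of S2 cells on the left and of brains on the right of each panel. Points are samples, bars the mean and SD of 3. In S2 cells the arsenite points of Act5C, Act42A, betaTub56D and alphaTub84D all lie above the Schneider's points, and uninduced Act5C in brains stands at 14%.

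The order of the members differed between the groups. In S2 cells in arsenite, alphaTub84D (20.2%), betaTub60D (19.98%) and betaTub56D (15.3%) headed the list, and neighbours among them overlapped in range. Act5C (12.5%) and Act42A (10.8%) followed, also overlapping, and alphaTub84B (5.61%) was last and separate. In Schneider's betaTub60D (20.3%) stood apart from alphaTub84D (10.01%), which overlapped betaTub56D (8.63%), as betaTub56D did Act5C (6.61%). Without the positions that already read G before induction, 1 each in Act5C and betaTub60D, betaTub60D averaged 13.3% in arsenite S2 cells and 13.7% in Schneider's S2 cells, and its mean in arsenite was then below those of betaTub56D (15.3%) and Act5C (14.4%).

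**Figure D2:**
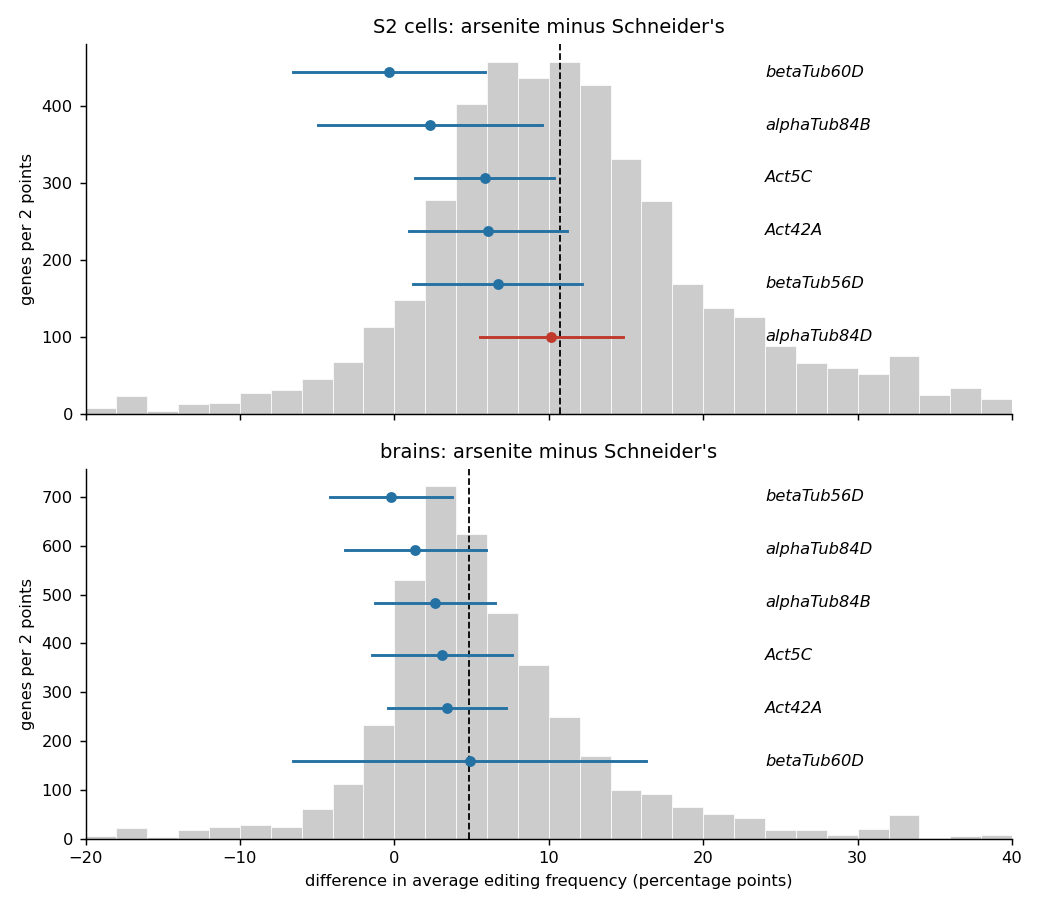
Difference in average editing frequency (arsenite minus Schneider's, percentage points) over all genes tested, as a grey histogram with its median dashed, for S2 cells above and brains below; points are the members with 95% intervals, red where called. In S2 cells all 6 members lie to the left of the median of 10.7 points.

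In brains, none of the 6 members was called by limma, against 6.15% of the 4192 genes tested (6.06% called higher and 0.0954% lower). None had an unadjusted p under 0.05 either, and the quasi-binomial model of the reads called 0 at 0.01 and 1 at 0.05. The median difference of the members was 2.86 points and that of all genes 4.87. All tested genes averaged 11.4% ± 2.11 in arsenite and 5.18% ± 0.678 in Schneider's.

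Act42A was edited at 5.20%, 3.54% and 3.63% in arsenite brains, against 0.692%, 1.00% and 0.505% in Schneider's and 0.388% in the uninduced brains. The groups did not overlap, as in 3 of the 6 members, all with arsenite above, against 27.5% of all genes with arsenite above and 0.382% with arsenite below. The difference was 3.39 points (SE 1.52, limma adjusted p = 0.305). These values rest on 31 edited of 807 reads in arsenite and 5 of 692 in Schneider's.

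alphaTub84B also showed no overlap, with 2.60%, 4.04% and 2.08% in arsenite brains, against 0.833%, 0% and 0% in Schneider's (difference 2.63 points, limma adjusted p = 0.375). alphaTub84D was edited at 5.56%, 7.93% and 3.49% in arsenite, against 4.63%, 4.09% and 4.17% in Schneider's, with overlap (difference 1.36 points, limma adjusted p = 0.618). betaTub56D was edited at 4.05%, 2.81% and 4.50% in arsenite, against 3.23%, 5.04% and 3.71% in Schneider's, with overlap and a difference of -0.21 points (95% interval -4.16 to 3.75, limma adjusted p = 0.936). None of these tubulins passed the test. Act5C, the last of the 3 without overlap, had 16.1%, 17.3% and 15.9% in arsenite, against 11.3%, 13.4% and 15.3% in Schneider's (difference 3.09 points, limma adjusted p = 0.373).

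betaTub60D was edited at 5.30%, 5.15% and 19.8% in arsenite brains, against 3.29%, 4.74% and 7.59% in Schneider's. One arsenite sample stood far above the rest, the groups overlapped, and the gene held 58 to 91 reads in each induced brain sample (difference 4.88 points, SE 4.55, limma adjusted p = 0.501). The interval, from -6.56 to 16.3 points, is too wide to show a difference of the size seen over all genes.

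The response to arsenite was larger in S2 cells than in brains for alphaTub84D, by 8.81 points (SE 2.25, limma interaction, adjusted p = 0.0662). This was 1 call among 6 members, against 9.65% of the 4963 genes tested (8.83% with the larger response in S2 cells and 0.826% with the larger in brains). betaTub56D had a difference of responses of 6.89 points (limma adjusted p = 0.134), and the other members 2.75 (Act5C), 2.65 (Act42A), -0.33 (alphaTub84B) and -5.24 (betaTub60D), none past the threshold. The median over all genes was 5.56 points. After division by the mean of each sample the value for alphaTub84D was 4.66 points and not called, nor was it on the arcsine scale. A replicate block, fitted although the replicate numbers do not pair samples, did not call it either. The promoter, the induction and the cells that express the fusion differ between the materials, and these cannot be told apart from the material itself.

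In Schneider's medium, S2 cells had higher editing than brains for alphaTub84D and betaTub60D, and lower editing for Act5C, which makes 3 of 6 members called, against 26.1% of the 4464 genes tested (24.0% higher and 2.08% lower in S2 cells). The materials did not overlap for 5 members, with S2 cells above in 4 and below in 1, against 45.3% of all genes with S2 cells above and 4.03% with S2 cells below. The differences were 5.71 points for alphaTub84D (limma adjusted p = 0.0207), 15.1 for betaTub60D (adjusted p = 0.00537) and -6.72 for Act5C (adjusted p = 0.0262). The number of calls was 1 without brain Schneider's replicate 2, likewise 1 without brain Schneider's replicate 3, 2 to 4 without any other single replicate, and 1 after division by the mean of each sample. Over all genes the fits without brain Schneider's replicate 2 or 3 called 719 and 660 higher and 96 and 109 lower. Division called 332 higher and 127 lower. In Act5C and betaTub60D a single position each bore on these differences.

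The position X:5902796 of Act5C, the third base of a codon in the coding sequence, already read G without the fusion. In the uninduced brains 49 of 50 reads carried G. In the induced brains the shares were 80.4%, 95.6% and 96.4% in arsenite, against 65.3%, 82.0% and 97.5% in Schneider's, while all 7 S2 samples together had 1 such read of 357.

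The position 2R:24311664 of betaTub60D, again the third base of its codon, showed the opposite pattern. All 93 reads of arsenite S2 cells, all 63 of Schneider's S2 cells and all 20 of uninduced S2 cells carried G, against 2 of 23 in arsenite brains, 0 of 24 in Schneider's brains and 0 of 7 in the uninduced brains. Among all bulk positions, 153 in 143 genes had G in at least 50% of at least 5 reads of an uninduced library.

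Without such positions, an alternative chosen after seeing the data, the brain frequency of Act5C was 4.02% ± 1.45 in arsenite and 1.95% ± 0.347 in Schneider's (SD, n = 3 each) and 0% in the uninduced sample, instead of 16.4%, 13.3% and 14%. The comparison of the materials in Schneider's then turned round for Act5C, with S2 cells higher by 5.76 points (limma adjusted p = 0.0216). For betaTub60D it became 8.04 points (adjusted p = 0.0267), with 13.3% ± 3.6 in arsenite S2 cells, 13.7% ± 1.36 in Schneider's S2 cells and 0% in uninduced S2 cells. The calls for arsenite against Schneider's were the same with and without these positions for all 6 members, in both materials.

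**Figure D3:**
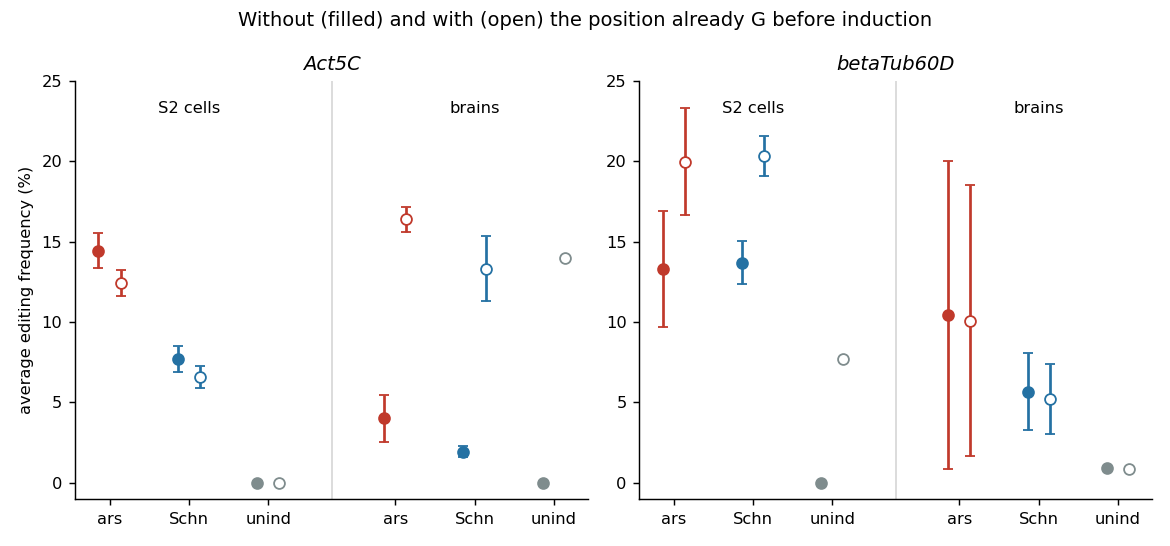
Average editing frequency (%) of Act5C and betaTub60D per group, without (filled) and with (open) the position that already read G before induction; points are means, bars SD of 3, and uninduced groups are 1 sample. Without it the uninduced brains fall to 0% for Act5C and the uninduced S2 cells to 0% for betaTub60D.

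Without induction the members' positions were nearly free of G otherwise. No edited read was found at 38 of the 41 positions in uninduced S2 cells and at 37 in uninduced brains. Some of these positions held too few reads to show editing, such as 1 read at 3R:7087468 of alphaTub84B in uninduced S2 cells. In uninduced brains 2R:24305949 of betaTub60D held 2 reads. The same count over all positions was not made. In S2 cells the difference between Schneider's and the uninduced sample was above 0 for all 6 members, from 3.30 points (alphaTub84B) to 12.6 points (betaTub60D). None was called by limma, against 7.16% of the 4077 genes tested (7.01% higher and 0.147% lower in Schneider's), and 3 had an unadjusted p under 0.05. In brains none was called, against 0.935% of the 3317 genes tested (0.482% higher and 0.452% lower), and none had an unadjusted p under 0.05. With reads pooled over the gene 1 member was called in S2 cells, against 344 genes higher and 5 lower of 4077 tested. Without the positions that read G before induction 1 member was called there, against 269 genes higher and 6 lower of 4065 tested. The single uninduced sample is assumed in these fits to vary like the Schneider's replicates.

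At single positions in S2 cells, 37 member positions were read 10 times or more in every induced sample, and 5 of them were called, against 16.4% of the 9117 positions tested (16.4% higher and 0.0439% lower). All 5 were higher in arsenite, and 27 of the 37 differences were above 0. The median difference was 3.37 points for the members' positions and 7.11 for all positions tested. The call count was 2 without Schneider's replicate 1, and 1 without Schneider's replicate 2 or 3. Over all positions these fits called 863, 856 and 920 higher and 6, 6 and 3 lower. With every replicate 1491 were called higher and 4 lower.

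The most edited adenosine of alphaTub84D, at 3R:7532607, is the second base of the last codon before the stop (nucleotide 1349 of 1350 from the start codon). It carried G in 65.5%, 59.6% and 60% of reads in the arsenite samples, against 31.4%, 36.6% and 31.6% in Schneider's, with no overlap. Pooled, 185 of 301 reads were edited in arsenite (61.5%, interval 55.7 to 67.0), 97 of 295 in Schneider's (32.9%, 27.5 to 38.6) and 1 of 92 in the uninduced sample. The difference was 28.5 points (SE 2.98, limma adjusted p = 0.00962), and the call was kept in each of the fits that left out 1 replicate.

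This position held 91.1% of the edited reads of alphaTub84D in arsenite S2 cells and 94.2% in Schneider's S2 cells. The mean over the other 3 positions was 6.34% ± 0.229 in arsenite and 2.29% ± 0.993 in Schneider's (SD, n = 3 each). In brains the same adenosine was edited in 22.2%, 31.7% and 13.95% of reads in arsenite, against 18.5%, 11.1% and 16.7% in Schneider's, with overlap (difference 7.20 points, limma adjusted p = 0.506).

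In Act5C, 2 neighbouring adenosines of the 3′ UTR, at nucleotides 1213 and 1224 from the start codon, were called. At X:5903910, 47 of 356 reads were edited in arsenite S2 cells (13.2%, interval 9.86 to 17.2) and 6 of 364 in Schneider's (1.65%, 0.607 to 3.55), a difference of 11.7 points (limma adjusted p = 0.0375). At X:5903921 the counts were 48 of 346 in arsenite and 8 of 365 in Schneider's, a difference of 11.5 points (limma adjusted p = 0.0360). Another 3′ UTR adenosine of an actin, 2R:6014196 in Act42A, had 22 of 130 reads edited in arsenite and 3 of 142 in Schneider's (15.1 points, limma adjusted p = 0.0473). None of these 3 adenosines had an edited read in either uninduced sample. In brains the highest share among them was 5 of 75 reads, at the Act42A adenosine in arsenite.

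The most edited adenosine of Act5C in S2 cells was X:5903683. Its difference there was close to those of the called adenosines of Act5C, and positions were not tested against each other. It is the second base of a codon at nucleotide 986 from the start codon. Its shares were 50.8%, 45.9% and 48.2% in arsenite S2 cells, against 43.5%, 36.2% and 33.0% in Schneider's, with no overlap, and the difference of 10.7 points was not called (limma adjusted p = 0.0860). In brains they were 18.5%, 17.7% and 8.16% in arsenite, against 5.38%, 6.94% and 2.7% in Schneider's, again without overlap (9.80 points, limma adjusted p = 0.216).

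Act42A has an edited adenosine at the same nucleotide 986 of a coding sequence of the same length, 1128 nucleotides. There 15 of 117 reads were edited in arsenite S2 cells (12.8%, interval 7.36 to 20.3) and 12 of 111 in Schneider's (10.8%, 5.71 to 18.1). The Act5C shares at the matching adenosine were 48.1% (41.5 to 54.7) in arsenite and 37.0% (30.6 to 43.9) in Schneider's, and these intervals do not meet those of Act42A. In the single-cell table this adenosine was again the only coding position shared by the 2 actins, with 154 of 434 reads edited in Act5C and 39 of 361 in Act42A in arsenite wells. The alpha-tubulin pair shared no bulk position and shared nucleotides 287 and 554 in single cells. The beta-tubulin pair shared no nucleotide number. Their coding sequences differ in length (1368 nucleotides in betaTub56D, 1362 in betaTub60D) and were not aligned. Equal numbers therefore need not be matching bases in that pair.

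In betaTub56D, all 7 positions lay in coding sequence and 5 of them were second bases of a codon. The called one, 2R:19447785, had 16.7%, 31.2% and 23.5% in arsenite S2 cells, against 7.69%, 4.35% and 10% in Schneider's (difference 16.5 points, limma adjusted p = 0.0503). The most edited one, 2R:19448631, had 54 of 150 reads in arsenite and 34 of 121 in Schneider's (limma adjusted p = 0.169). In brains it had 31 of 271 in arsenite and 38 of 266 in Schneider's, and 2 of 105 in the uninduced brains.

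In betaTub60D, 2R:24311276 was edited in 35 of 68 reads in arsenite S2 cells and 37 of 68 in Schneider's. The arsenite replicates ranged from 36.8% to 78.3% around the Schneider's replicates, at 52.4% to 57.1%. No betaTub60D position was called, and 5 of its 13 positions had a higher pooled share in arsenite S2 cells. Over all 6 members 29 of 41 positions had, and a difference between betaTub60D and the others was not tested.

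**Figure D4:**
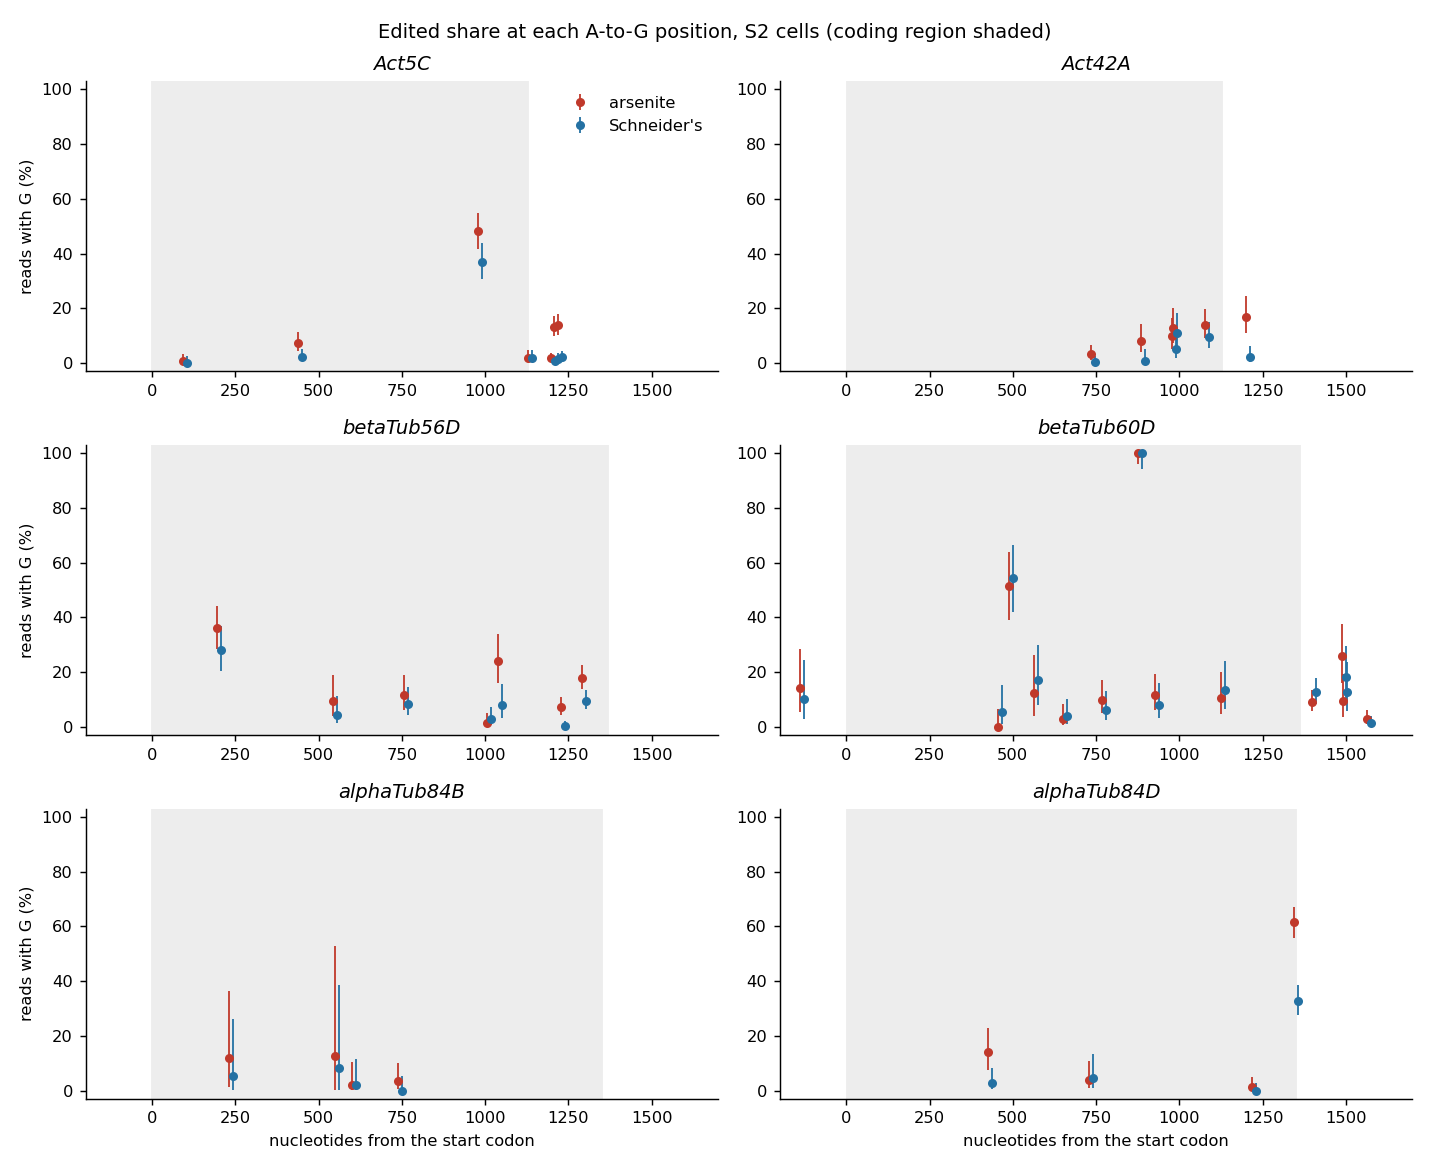
Reads with G (%) at each A-to-G position of the 6 mRNAs in S2 cells, against nucleotides from the start codon, with the coding region shaded. Red is arsenite and blue Schneider's, pooled over 3 replicates, with 95% Clopper-Pearson intervals, and the points of a position are set slightly apart. The position of betaTub60D at 100% already read G before induction, and the last coding position of alphaTub84D stands at 61.5% against 32.9%.

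In brains 24 member positions had at least 10 reads in each induced sample, none in betaTub60D. Limma called 0 of them, against 6.32% of the 5018 positions tested (6.18% higher and 0.139% lower), and 2 had an unadjusted p under 0.05. These 2 were Act5C X:5903683 and Act42A 2R:6014196. On the arcsine scale 1 member position was called, against 363 positions higher and 5 lower of the 5018 tested.

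In single S2 cells, reads were summed per plate and population, which gives 2 values per population. No member was called by limma for arsenite against Schneider's, against 10.1% of the 5994 genes tested, and none had an unadjusted p under 0.05. The 2 plates carry the same 384 well barcodes, and the 32 empty wells held a median of 93 reads, against 21055 in the wells of Schneider's and 22880 in those of arsenite. The ranges overlapped, since empty wells held up to 586 reads and the lowest wells of arsenite and Schneider's 172 and 255. All wells of a population were summed, while the deposited single-cell table holds 355 of the 768 wells. At the members' positions the empty wells held 15 reads, 1 of them edited.

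alphaTub84D had an average editing frequency of 11.5% and 8.99% in arsenite on plates 1 and 2, against 4.21% and 5.05% in Schneider's. Act42A had 7.16% and 6.96% in arsenite, against 2.61% and 2.26% in Schneider's. Arsenite and Schneider's did not overlap in 4 of the 6 members, all with arsenite above, against 67.4% of all genes with arsenite above and 1.08% with arsenite below. The difference was 5.62 points for alphaTub84D (95% interval -0.41 to 11.6, limma adjusted p = 0.146) and 4.62 points for Act42A (95% interval -0.41 to 9.65, adjusted p = 0.148).

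betaTub56D had 7.32% and 6.16% in arsenite, against 3.78% and 3.47% in Schneider's (difference 3.12 points, limma adjusted p = 0.260). betaTub60D had 8.58% and 12.0% in arsenite, against 8.06% and 6.32% in Schneider's (3.09 points, adjusted p = 0.377). alphaTub84B had 2.02% and 3.28% in arsenite, against 2.33% and 2.00% in Schneider's, with overlap (0.48 points, adjusted p = 0.825). The median over the 6 members was 3.10 points and over all genes tested 8.85.

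For Act5C the result turned on how positions were weighted. The mean over its 16 single-cell positions was 6.28% and 6.24% in arsenite, against 5.04% and 7.65% in Schneider's (difference -0.09 points, limma adjusted p = 0.973). With reads pooled over the gene, 190 of 2321 and 144 of 2069 reads were edited in arsenite, against 68 of 2167 and 80 of 1964 in Schneider's, which is 8.19% and 6.96% against 3.14% and 4.07% (difference 3.97 points, also not called). The 2 positions farthest into its 3′ UTR held 11 reads each in Schneider's over both plates, 2 and 3 of them edited, and each counts in the mean as much as X:5903683 with 400 reads.

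Of the 72 single-cell positions, 60 had a higher pooled share in arsenite than in Schneider's, among them all of betaTub56D, Act42A and alphaTub84D. The same count over all single-cell positions was not made, so it has no background. At the last codon of alphaTub84D the shares were 40.8% and 46.7% in arsenite, 28.6% and 37.5% in Krebs Ringer buffer, 17.6% and 15.6% after 2 h of induction, and 23.3% and 27.5% in Schneider's. At nucleotide 986 of Act5C 35.5% of reads were edited in arsenite (interval 31.0 to 40.2) and 24.0% in Schneider's (19.9 to 28.5). The called 3′ UTR adenosine X:5903910 had 8.75% in arsenite (5.80 to 12.6) and 1.36% in Schneider's (0.371 to 3.44).

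Krebs Ringer buffer, a salt solution, gave differences from Schneider's of 2.99 points for betaTub56D, 2.93 for alphaTub84D, 2.24 for betaTub60D, 2.11 for Act42A, 0.85 for alphaTub84B and -2.38 for Act5C. Limma called none, against 2.71% of the 5692 genes tested (2.35% higher and 0.351% lower), and none had an unadjusted p under 0.05. With pooled reads Act5C was 1.43 points higher in Krebs Ringer buffer. After 2 h of induction all 6 members had lower frequencies than after 4 h. For this contrast limma called none, against 1.08% of the 5447 genes tested (0.367% higher and 0.716% lower), and Act5C alone had an unadjusted p under 0.05. Act5C had 1.88% and 1.17% after 2 h, against 5.04% and 7.65% after 4 h (limma adjusted p = 0.841), and with its reads pooled it differed by -1.29 points.

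**Figure D5:**
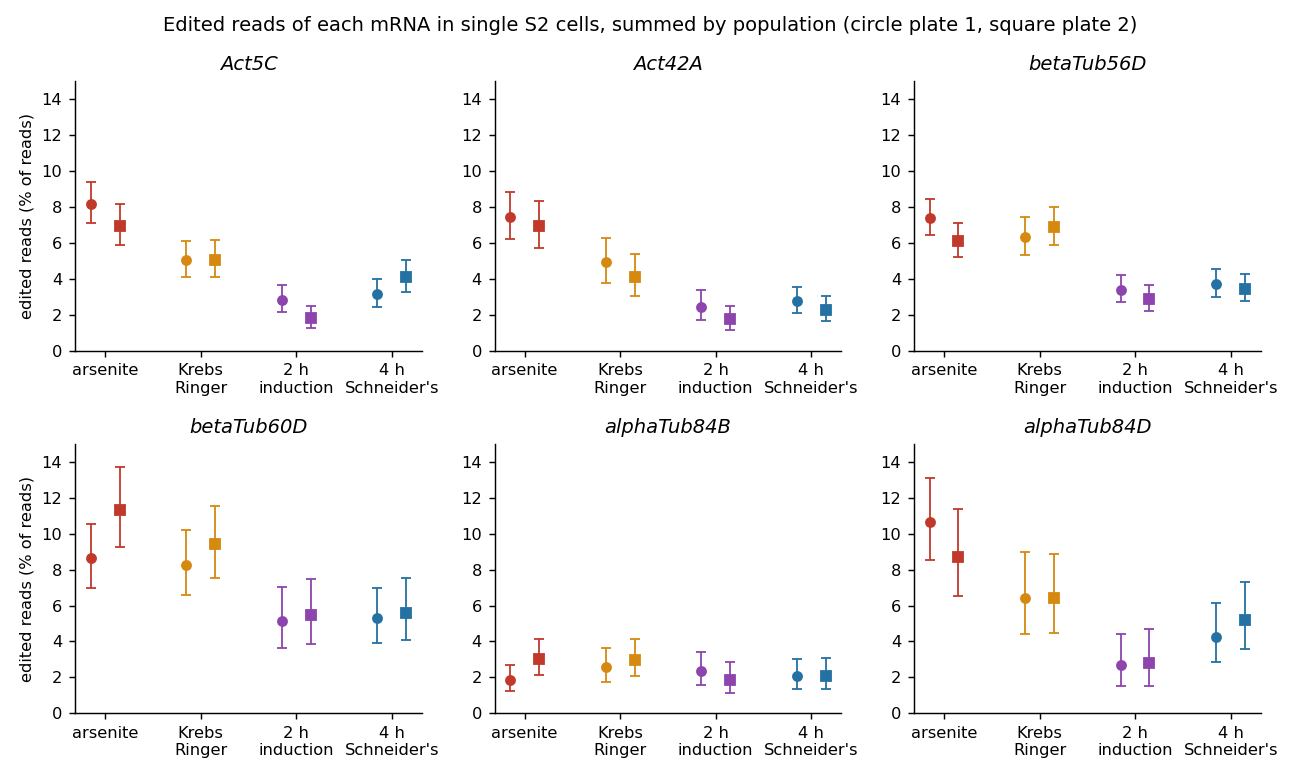
Edited reads as a percentage of all reads at the positions of each mRNA in single S2 cells, summed per population and plate (circles plate 1, squares plate 2), with 95% Clopper-Pearson intervals. Arsenite lies above 4 h Schneider's on both plates for every member but alphaTub84B, whose plate 1 has 1.85% in arsenite and 2.06% in Schneider's.

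Within the wells, most cells gave few reads. Among wells with at least 10 reads of alphaTub84D, 23 of 52 arsenite wells had no edited read (median 15 reads), against 33 of 47 Schneider's wells (median 14 reads). For Act5C 59 of 147 arsenite wells had none, against 72 of 143 Schneider's wells, with a median of 25 reads in both. For alphaTub84B the counts were 84 of 114 arsenite wells and 80 of 105 Schneider's wells. Wells of a plate are not replicates, and no test was run over them.

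Reads at the members' positions were compared as reads per 10000 at all A-to-G positions. This is no level of an mRNA, since it counts a few positions of each gene. In S2 cells all 6 members had a higher mean in arsenite, with a ratio of up to 1.22, in alphaTub84B. Of these, betaTub60D (10.5 ± 0.356 in arsenite, 8.97 ± 0.244 in Schneider's) and betaTub56D (9.62 ± 0.311 in arsenite, 8.57 ± 0.636 in Schneider's) had groups without overlap. In brains Act5C had 13.0 ± 0.960 in arsenite and 17.6 ± 4.48 in Schneider's, with overlap. alphaTub84D had 3.62 ± 0.514 in arsenite brains and 2.61 ± 0.198 in Schneider's brains, and Act42A 8.66 ± 0.586 in arsenite brains and 7.60 ± 0.0854 in Schneider's brains, both without overlap. The exact permutation test (two-sided) cannot go below 0.1 with 3 samples against 3, and every adjusted p over the 12 comparisons was 0.30 or more. In the brains, fewer cells of a type and less RNA per cell cannot be told apart.

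A-to-C positions, which ADAR does not make, served as a measure of other changes. At 77 such positions of the members the changed share was 8.41% ± 0.15 in arsenite S2 cells and 8.06% ± 0.254 in Schneider's S2 cells, against 7.68% in the uninduced sample (exact permutation p = 0.2). In brains it was 7.93% ± 0.208 in arsenite, 7.69% ± 0.574 in Schneider's and 7.81% without induction (exact p = 0.6). At the A-to-G positions it was 15.5% ± 1.18 in arsenite S2 cells and 9.02% ± 1.09 in Schneider's S2 cells, against 1.23% without induction (exact p = 0.1, the smallest possible). In brains it was 7.80% ± 0.934 in arsenite, 5.70% ± 0.384 in Schneider's and 3.00% without induction (exact p = 0.1). These shares include the 2 positions that read G before induction. Without them the share in brains was 4.61% ± 0.492 in arsenite, 2.72% ± 0.274 in Schneider's and 0.234% (4 of 1711 reads) without induction (exact p = 0.1), and in S2 cells 14.6% ± 1.16 in arsenite, 8.22% ± 1.27 in Schneider's and 0.116% (2 of 1723 reads) without induction (exact p = 0.1).

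Genes that work with actin and tubulin were counted from lists. Of 37 tested actin regulators in S2 cells, 9 were called higher in arsenite and none lower, with a median difference of 7.29 points. Of 25 tested microtubule-associated proteins, 6 were called higher and none lower (median 5.38 points). Of the 8 subunits of CCT, the chaperonin that folds actin and tubulin, 5 were called higher and none lower (median 7.57 points). Over all 4589 genes tested, 23.6% were called higher.

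In brains the corresponding counts were 1 of 37, 3 of 26 and 0 of 8, against 6.06% of all genes called higher. The most read genes of each list were ena and Fim among actin regulators, chb and Map205 among microtubule-associated proteins, and CCT7 and CCT6 among CCT subunits. CCT7 was edited at 13.4% ± 0.426 in arsenite S2 cells and 5.72% ± 1.27 in Schneider's S2 cells (difference 7.70 points, limma adjusted p = 0.0367), and was the 1 of these 6 that was called there. ena, which extends actin filaments at their growing ends, had 14.8% ± 2.21 in arsenite and 7.01% ± 0.523 in Schneider's (limma adjusted p = 0.0456). Of the other actins and tubulins only gammaTub23C, which nucleates microtubules at the centrosome, was in the bulk table, with 23.9% ± 11.6 in arsenite S2 cells and 8.80% ± 5.71 in Schneider's (limma adjusted p = 0.139).

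Genes with the most similar profile were sought by the root mean square difference of the frequency over the 14 bulk samples, among 1846 genes with at least 20 reads in every sample. Nearest to Act42A was ncd, a kinesin motor, at 0.945 points, and nearest to betaTub56D was pAbp, the poly(A)-binding protein, at 1.69 points. alphaTub84D was nearest to CG1371 (1.48 points), alphaTub84B to Mlc-c, a myosin light chain (1.46 points), Act5C to CG2765 (3.43 points) and betaTub60D to CG11970 (4.02 points). The median distance to all these genes ran from 5.42 points for alphaTub84D to 9.74 points for Act5C. The profiles of Act5C and betaTub60D include their positions that read G before induction, and distances without these were not computed.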

How the data were processed

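VASA-seq libraries of S2 cells, larval brains and single S2 cells were used. The authors trimmed reads (cutadapt 3.2), removed ribosomal RNA (BWA 0.7.17-r1188), mapped to BDGP6 with STARsolo 2.7.7a, kept unique mappers, collapsed molecular identifiers (UMI-tools 1.1.1) and called variants with GATK 4.1.9.0. They deposited the average editing frequency per gene as a fraction, without further normalization, and variant tables with read counts per base. Tables of their own comparisons (p-values and scores) were not used. The variant tables name 20 libraries that no label maps to a sample, and these were left out.

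A-to-G positions in transcript orientation with quality above 250 and allele frequency under 0.95 were kept. Their mean share equalled the deposited fraction within 1e-06 for 4998 of 5003 genes. limma 3.58.1 (R 4.3.3, two-sided, no covariate) compared the groups over every gene with a frequency above 0 in a sample, and p under 0.01 was a call. Adjusted p are by Benjamini-Hochberg over all genes or positions tested. Single-cell reads were summed per plate and population. scipy 1.17.1 gave exact permutation tests and intervals. The limma and quasi-binomial fits were tested on reads simulated with counting error only, for genes with at least 20 reads in each induced S2 sample. That test does not cover the further spread between replicates, genes with fewer reads, brains or single cells.

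The members and gene lists were chosen with earlier results of these data known. Named were the other actins and tubulins in the table, the 2 most read genes of each other list, the nearest gene by profile, and positions with at least 10 reads in each induced sample of a material, besides the 2 positions that read G before induction. Alternatives were pooled reads, the arcsine scale, minimum reads, stricter quality, division by the sample mean, no filter, a replicate block, other sets of samples, a quasi-binomial model, adjusted p and each replicate left out, and, chosen after seeing the data, leaving out positions that read G before induction or wells outside the deposited single-cell table. Replicate libraries of a group differed beyond counting noise, so none was counted as a duplicate, and the study describes the bulk replicates as triplicate experiments. For the 2 single-cell plates the sources used here do not say whether they were separate cultures, so there p-values measure only the spread between plates, which may be technical.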

Additional observations from a re-analysis of the deposited data

Results flagged for a closer look

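The response of alphaTub84D to arsenite passed the unadjusted threshold for a difference between the materials. It was larger in S2 cells than in brains by 8.81 percentage points (SE 2.25, limma interaction test, adjusted p = 0.0662, unadjusted p under 0.01), with 10.2 points in S2 cells and 1.36 points in brains. Of the 4963 genes tested 9.65% were called, the median was 5.56 points, and 64.3% of genes had a smaller difference. With each replicate left out in turn the value lay between 7.73 and 9.95 points and was called each time. The arcsine scale and division by the sample mean ended the call. A replicate block ended it as well, although the replicate numbers do not pair samples.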

How the results depend on the processing

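Of 677 values of single genes, positions or shares under an alternative, 575 kept their direction and side of the threshold, 39 reversed, 39 fell short of the threshold and 24 passed it. Of 220 counts and summary values, 155 kept within 1.5 times and 65 moved. Depth limited the precision, with 34 to 762 reads per member and sample. The cause of the changes below was not tested.

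Division by the mean of the sample lowered the genes called from 1087 to 313 in S2 cells (165 higher and 148 lower, against 1083 and 4), from 258 to 140 in brains (83 higher, 57 lower), from 479 to 178 for the difference of responses (77 higher, 101 lower), from 1164 to 459 for S2 cells against brains in Schneider's (332 higher, 127 lower; members called 1), and from 606 to 121 (85 higher, 36 lower) for arsenite and 154 to 89 (54 higher, 35 lower) for Krebs Ringer in single cells. It turned round Act5C (-0.62), betaTub56D (-1.49) and alphaTub84B (-0.81) in S2 cells, Act5C (-9.60), betaTub60D (-0.65) and alphaTub84D (-2.81) in brains, Act42A (-2.39) in the difference of responses, betaTub56D (-0.84) and alphaTub84D (-0.44) between the materials, betaTub56D (-2.15), betaTub60D (-6.17), alphaTub84B (-2.17) and alphaTub84D (-1.72) in single-cell arsenite, and betaTub60D (-2.73), alphaTub84B (-0.69) and alphaTub84D (-0.71) in Krebs Ringer. It also left 0 members called for the difference of responses. The average of Act5C in brains includes the position that read G before induction, and division without such positions was not run.

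Same-numbered replicates did not deviate together (correlations from -0.0382 to 0.0231), so the numbers do not pair samples. The replicate block gave 502 genes and 0 members in S2 cells, 105 genes in brains, and 286 genes and 0 members for the difference of responses, so alphaTub84D was called in neither of these fits. It gave 2 member positions in S2 cells, against 1180 positions higher and 5 lower. In single cells, where the block is the plate, it gave 84 genes for arsenite, 31 for Krebs Ringer and 16 (from 59) for 2 h.

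Members called in S2 cells numbered 2 with at least 10 reads per position (796 of 2065 genes), 4 with no filter (1218 of 5003 genes) and 4 with all 14 samples (1628 of 4589 genes). The quasi-binomial model called 2 members and 680 of 4567 genes there, and 108 genes in brains. In brains 161 genes passed with at least 10 reads per position and 1 at an adjusted p under 0.05. With no filter 1 member passed there, against 358 genes higher and 4 lower. The difference of responses gave 293 genes and 0 members on the arcsine scale, and 130 genes and 2 members with at least 10 reads per position. With no filter it gave 2 members, against 474 genes higher and 42 lower. Between the materials 307 genes passed with at least 10 reads per position. Against uninduced S2 cells, 1 member was called with pooled reads (344 genes higher, 5 lower) and 1 without positions already G (269 genes higher, 6 lower). Against uninduced brains, 15 genes (from 31) were called with all 7 samples. All 8 sums in 1 fit gave 1433 genes for arsenite, 256 for Krebs Ringer and 35 for 2 h, and quality above 1000 gave 320 for arsenite. At least 20 reads left 701 of 1495 positions in S2 cells and 111 of 317 in brains. The arcsine scale called 1 brain member position, against 363 positions higher and 5 lower.

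Further reversals were betaTub60D in S2 cells with pooled reads (1.57) and the quasi-binomial model (1.55), Act42A in the difference of responses on the arcsine scale (-0.0039 radians), alphaTub84B with quality above 1000 (2.22 for the difference of responses, -0.46 for single-cell arsenite, -3.12 for Krebs Ringer), Act5C without positions already G (5.76 between the materials, 1.95 against uninduced brains) and with pooled reads (3.35 against uninduced brains, 3.97 for single-cell arsenite, 1.43 for Krebs Ringer), alphaTub84B for 2 h with pooled reads (0.022), and the read ratio of betaTub56D in brains (1.0015, against 0.9988).

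Leaving out each replicate gave 531 to 990 genes and 0 to 1 members in S2 cells, 95 to 396 genes in brains, 769 to 1094 genes and 1 to 4 members between the materials, 862 to 1503 positions and 1 to 6 member positions in S2 cells, and 164 to 444 positions and 0 to 1 member positions in brains. betaTub60D lay between -1.75 and 1.48 in S2 cells, its position 2R:24311276 between -16.8 and 3.90, betaTub56D in brains between -0.59 and 0.32, and alphaTub84B in the difference of responses between -1.98 and 1.72.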
